A study of Mus musculus with 2 samples.

Results

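Chromatin regulator genes were described in the accessible chromatin of embryonic mouse motor neurons. The rule that picks the genes reads their symbols and no measured value. They are all protein-coding mouse genes named Chd and a number, Hdac and a number, Kdm, Kmt or Arid and a digit, Smarc and a letter, or Ezh1 and Ezh2. The rule gave 71 of 21887 protein-coding genes (0.324%): 9 Chd, 18 Kdm, 8 Kmt, 11 Hdac, 13 Smarc, 10 Arid and 2 Ezh genes. An accessible site was assigned to a gene when its summit lay inside the gene, or within 100 kb of it with that gene's end as the nearest protein-coding gene end. In this way 672 of 138387 sites in the list were assigned to 70 of the 71 genes.

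Chromatin regulators set how tightly DNA is packed around histones. Chd and Smarc proteins include the motor subunits that slide or evict nucleosomes with energy from ATP. Many Smarc and some Arid proteins are subunits of the BAF complex, which exchanges several subunits when a neural progenitor becomes a postmitotic neuron. Kmt and Ezh enzymes add methyl groups to histone lysines and Kdm enzymes remove them. Ezh1 and Ezh2 are the catalytic subunits of Polycomb repressive complex PRC2, and Hdac enzymes remove acetyl groups. Nearly all cells use many of these genes, so open promoters are the usual state of the group, and what can vary is how strong they are and what lies around them.

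FACS was used to sort GFP+ cells from Hb9::GFP mouse embryos (C57/Bl6) of embryonic day 10.5, and by their labels the cells are spinal motor neurons. The transgene takes its name from Hb9, now called Mnx1, which encodes a homeodomain factor needed for motor neuron identity, and GFP marks the cells in which it is active. A single group of 2 replicates was profiled by ATAC-seq, in which the Tn5 transposase cuts and tags open DNA, with 8 to 9 PCR cycles and paired 75-nt reads. The sites come from 1 list pooled over both replicates, so no value below has a replicate error, no comparison between conditions exists, and comparisons are between these genes and all genes in the same list.

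Each summit in the list is called an entry, since several summits can share an interval. The 138387 entries lay in 104069 intervals, and the 672 of the chromatin regulators in 488. Fold is the authors' ratio of reads at the summit to a local background, and reads are the read pileup at the summit, recovered from the deposited fold and p-value. The smallest pileup in the list was 11 reads, so a gene end without an entry was below the limit of detection and is not shown to be closed. Of the assigned entries, 541 (80.5%) had a q-value under 0.05, against 82.3% of all entries. A weak entry may reflect fewer cells with an open site or less opening in every cell, and these cannot be told apart in sorted bulk cells. Of 8 motor neuron markers, 7 had an entry within 1 kb of a gene end; the exception, Isl2, had an entry with 120 reads at its annotated start. Mnx1 itself rested on 406 reads at 7.42-fold. At the 7 markers the strongest gene-end entry had a median of 5.10-fold and 62 reads, and Chat was lowest with 3.08-fold on 34 reads. All genes with such an entry had medians of 8.17-fold and 97 reads. Among markers of other cells, such an entry was found at 2 of 6 of blood and microglia and 2 of 4 of endothelium. Muscle had 3 of 4, on 14 to 27 reads, epidermis 0 of 4 and mature glia 1 of 4. Over all protein-coding genes the share with such an entry was 65.5%.

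The sequences before the start sites with the strongest entries are shown first, since the entries gathered there. For each family, the gene with the highest fold at a gene end among those with a promoter in the RefSeq table of GRCm38.p6 (the assembly behind mm10) is given. Each window holds the 250 bases that end just before the annotated start, read in the direction of the gene. Capitals mark GC boxes (GGGCGG, or CCGCCC on the other strand), which Sp-family factors are known to bind, and CCAAT boxes (CCAAT, or ATTGG on the other strand), known for NF-Y.
Hdac6: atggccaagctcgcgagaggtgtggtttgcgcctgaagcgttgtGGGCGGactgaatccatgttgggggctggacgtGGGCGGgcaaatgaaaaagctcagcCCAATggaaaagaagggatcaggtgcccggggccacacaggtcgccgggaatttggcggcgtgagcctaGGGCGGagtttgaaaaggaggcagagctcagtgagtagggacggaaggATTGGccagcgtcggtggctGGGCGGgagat
Chd8: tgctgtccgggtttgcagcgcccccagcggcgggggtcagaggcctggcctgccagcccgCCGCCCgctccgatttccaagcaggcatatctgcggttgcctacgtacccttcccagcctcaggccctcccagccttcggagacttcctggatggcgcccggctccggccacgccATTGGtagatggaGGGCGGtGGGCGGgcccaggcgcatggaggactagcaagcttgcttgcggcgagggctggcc
Smarcad1: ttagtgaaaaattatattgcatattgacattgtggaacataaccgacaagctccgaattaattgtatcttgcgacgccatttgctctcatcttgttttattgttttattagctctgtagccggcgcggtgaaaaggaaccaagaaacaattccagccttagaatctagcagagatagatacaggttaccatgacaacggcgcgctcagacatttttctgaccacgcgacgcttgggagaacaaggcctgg
Kdm1b: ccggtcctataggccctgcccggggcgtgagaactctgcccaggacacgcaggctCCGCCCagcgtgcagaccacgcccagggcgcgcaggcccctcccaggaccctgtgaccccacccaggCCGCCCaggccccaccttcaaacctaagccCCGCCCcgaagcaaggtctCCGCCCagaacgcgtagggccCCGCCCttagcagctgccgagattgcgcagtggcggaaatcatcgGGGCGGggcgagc
Kmt5c: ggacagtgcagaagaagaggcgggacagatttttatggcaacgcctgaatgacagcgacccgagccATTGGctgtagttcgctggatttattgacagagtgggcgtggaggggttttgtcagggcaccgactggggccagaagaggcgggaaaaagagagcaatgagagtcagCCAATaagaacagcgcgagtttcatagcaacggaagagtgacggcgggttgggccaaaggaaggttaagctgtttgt
Arid3b: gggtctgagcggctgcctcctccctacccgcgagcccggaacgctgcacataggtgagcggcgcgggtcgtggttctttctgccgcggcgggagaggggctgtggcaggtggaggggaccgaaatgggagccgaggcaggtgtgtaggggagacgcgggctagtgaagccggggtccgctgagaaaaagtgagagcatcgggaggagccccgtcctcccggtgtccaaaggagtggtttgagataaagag
Ezh2: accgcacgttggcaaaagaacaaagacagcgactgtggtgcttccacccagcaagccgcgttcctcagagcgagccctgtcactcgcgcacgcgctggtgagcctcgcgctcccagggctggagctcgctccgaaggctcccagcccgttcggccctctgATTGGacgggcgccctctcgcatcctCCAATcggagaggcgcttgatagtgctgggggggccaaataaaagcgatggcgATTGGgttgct
The windows differed in their letters although all 7 starts had entries, from 8.16-fold at Ezh2 to 13.8-fold at Hdac6. The median over all genes with a gene-end entry was 8.17-fold. Chd8 (chr14:52257761-52258010, minus strand) had 3 GC boxes and 1 CCAAT box, Kdm1b (chr13:47043249-47043498, plus strand) 6 GC boxes, and Hdac6 (chrX:7947890-7948139, minus strand) 4 GC boxes and 2 CCAAT boxes. Kmt5c (chr7:4739877-4740126, plus strand) had 2 CCAAT boxes and Ezh2 (chr6:47595031-47595280, minus strand) 3, both without a GC box. Smarcad1 (chr6:65042341-65042590, plus strand) and Arid3b (chr9:57836485-57836734, minus strand) held neither. These genes each have a second annotated start. That of Arid3b is nearer to its summit (summit offset -83 bp against -378 bp), and its window held a CCAAT box and a GC box, while that of Smarcad1 again held neither. All of the printed windows held CpG pairs, from 13 in Smarcad1 and Kmt5c to 23 in Ezh2.

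Open gene ends were nearly universal among the chromatin regulators. An entry within 1 kb of either gene end was found at 66 of 71 genes (93.0%), against 65.5% of all protein-coding genes. The exact 95% binomial interval of that share is 84.3 to 97.7%, which treats genes as independent and covers no replicate error. At 65 of the 66 genes the entry also had a q-value under 0.05, and the exception was Kdm5d on the Y chromosome. The chromatin regulators are long genes, with a median of 51.8 kb against 17.2 kb, and long genes more often had an open end. All genes were therefore divided by length into 4 classes of equal size. In the longest class, which holds 41 chromatin regulators, the shares were 90.2% against 79.8%. In the next class, with 24 of them, the shares were 95.8% and 72.8%, so the difference was smaller but present at like length.

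The strength of these entries was ordinary. The strongest entry at a gene end had a median of 7.89-fold in the chromatin regulators and 8.17-fold in all genes with such an entry. Of the 66, 30 (45.5%) lay above the median of all genes, where 50% is the background by construction. Their reads were slightly higher, with a median of 109.5 against 97, and so was the local background, with 14.1 against 10.7 reads. In the longest class of genes the fold was lower, at a median of 6.96 against 8.80, while reads were close at 100 and 104. The local background there was 14.8 reads against 10.8. The part of the background in the lower fold was not tested. The spread among the chromatin regulators was wide, from 1.89-fold at Kdm5d to 13.8-fold at Hdac6.

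**Figure D1:**
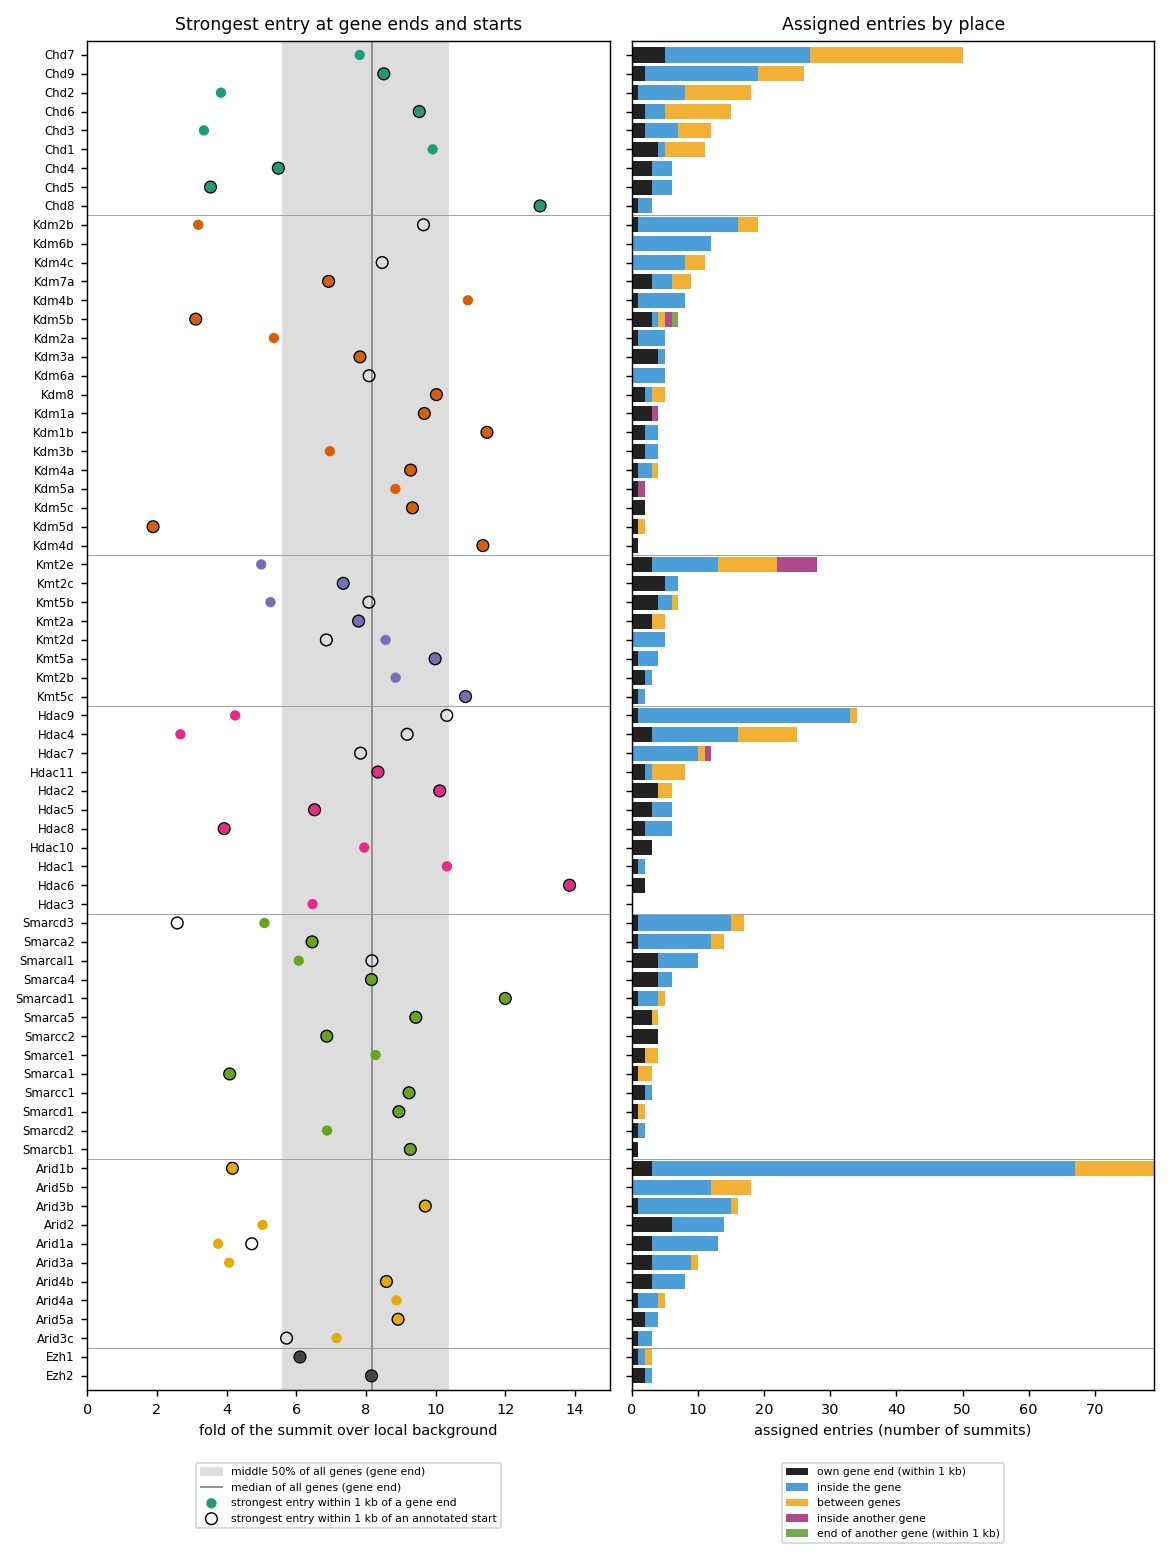
Left, fold over local background of the strongest entry within 1 kb of a gene end (filled points, 66 of 71 genes) and of an annotated start (open circles, 51 of 53 genes with one in the table); the grey line and band are the median (8.17) and middle 50% of all genes. Right, number of assigned entries of each gene by place, from 0 at Hdac3 to 79 at Arid1b. Genes are grouped by family, and the values come from 1 pooled list without replicate error.

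The Chd genes encode helicase-type remodellers. All 9 had a gene-end entry, with a median of 7.82-fold and 100 reads. Chd8, which is often mutated in autism, was the strongest with 12.99-fold and 214 reads (exact 95% Poisson interval 186 to 245, counting error only), the second highest of all 71 genes by fold. Chd1, a remodeller of transcribed genes, reached 9.91-fold and 188 reads, and Chd6 9.53-fold and 200 reads. The 3 Chd subunits of the NuRD complex, which pairs remodelling with deacetylation, were weaker: Chd4 had 5.48-fold and 90 reads, Chd5 3.53-fold and 34 reads, and Chd3 3.35-fold and 63 reads. Chd5 is known as the neuronal member of that trio. Chd2 had only 3.83-fold at its end, with 63 reads, but 11.4-fold and 196 reads at a summit 3.82 kb inside the gene. Chd2 is absent from the promoter table, so this summit could not be set against an annotated start. Chd3 is absent too. Its summits 4.43 kb inside and 2.75 kb outside the gene had 4.27-fold with 74 reads and 6.94-fold with 70 reads.

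The Smarc genes had a gene-end entry in 13 of 13, at a median of 8.15-fold and 122 reads. The ATPases of the BAF complex are Smarca4, also called Brg1, with 8.15-fold and 147 reads, and Smarca2, also called Brm, with 6.45-fold and 98 reads. The core subunits Smarcb1 (9.27-fold), Smarcc1 (9.23-fold), Smarcd1 (8.94-fold) and Smarce1 (8.27-fold) were close to each other. Smarcc2 was lower in fold at 6.87 but rested on 137 reads. Of the ISWI-type ATPases, Smarca5 had 9.43-fold and 217 reads, while its X-linked relative Smarca1 had 4.08-fold and 25 reads (interval 16.2 to 36.9). Smarcad1, a remodeller known for its role at newly replicated heterochromatin, was the strongest of the family with 11.996-fold and 188 reads.

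Smarcd3 differed from its relatives. It encodes BAF60c, a BAF subunit known from heart, muscle and neurons. Its gene-end entry had 5.08-fold on 34 reads, and the entry at its annotated start, which lies inside the span, only 2.58-fold on 54 reads. Yet 17 entries were assigned to it, 14 of them inside a gene of 31.8 kb. Genes of 0.5 to 2 times its length had a median of 4 entries (quartiles 2 and 6), and 97.6% of those 7472 genes had fewer. Smarcd1 and Smarcd2, which can take its place in the complex, had 2 entries each. Both are shorter, at 11.7 kb and 9.83 kb, and 2 was also the median of their length classes.

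The Arid genes share a DNA-binding domain but belong to different complexes. A gene-end entry was found in 9 of 10, with a median of 7.15-fold and 110 reads. Arid1a and Arid1b, mutually exclusive subunits of BAF, were both weak by fold: 3.75 with 79 reads at the outer end of Arid1a, 4.72 with 106 reads at its inner start, and 4.16 with 82 reads at Arid1b. Arid2, the subunit of the related PBAF complex, had 5.03-fold with 124 reads and a local background of 23.9 reads. That summit was nearer to the end of Gm38469. The strongest entry assigned to Arid2 had 5.50-fold with 34 reads, 45.9 kb inside the gene. In the interval at its own end, an assigned summit had 2.03-fold with 49 reads. Arid4a and Arid4b, which bind the Sin3 deacetylase complex, had 8.87-fold with 196 reads and 8.58-fold with 207 reads. The Arid4b summit was nearer to the end of another gene. The strongest entry assigned to Arid4b had 4.98-fold with 120 reads, at its own end. Arid3b was the strongest at 9.70-fold and 116 reads, more than Arid3a with 4.07-fold and 62 reads. Arid5b was the exception without a gene-end entry.

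The histone methyltransferases of the Kmt group all had a gene-end entry, 8 of 8, with a median of 8.17-fold and 135.5 reads, the highest median of reads among the families with more than 2 genes. Kmt2a to Kmt2d belong to the MLL enzymes, which methylate histones at promoters and enhancers. Their gene-end entries had 7.79-fold with 140 reads (Kmt2a), 8.85-fold with 166 reads (Kmt2b), 7.34-fold with 131 reads (Kmt2c) and 8.56-fold with 103 reads (Kmt2d). The Kmt2d value lies at the far end of the gene and is shared with the end of Prkag1; its own start had 6.86-fold and 89 reads. Kmt5a and Kmt5c, enzymes for histone H4 methylation, had 9.98-fold with 145 reads and 10.9-fold with 249 reads. The value of 249 reads was the highest of any gene end in the group (interval 219 to 282). Kmt5b, the partner of Kmt5c in function, had 5.26-fold at its end and 8.08-fold within 1 kb of its second annotated start. Ezh2 had 8.16-fold and 168 reads, and Ezh1, known as the form that persists in non-dividing cells, 6.10-fold and 49 reads.

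The Kdm demethylases had a gene-end entry in 15 of 18, with a median of 8.84-fold and 100 reads. Folds ran from 1.89 to 11.5, and from 3.11 without the Y-linked Kdm5d. Kdm1a, also called LSD1 and a partner of CoREST, had 9.67-fold with 98 reads, and its paralogue Kdm1b 11.5-fold with 196 reads. Kdm4d reached 11.4-fold with 162 reads, Kdm4b 10.9-fold with 242 reads, Kdm8 10.02-fold with 117 reads and Kdm4a 9.28-fold with 164 reads. The summits of Kdm1b and Kdm4d also lay within 1 kb of an end of Tpmt and Cwc15, so each of these entries cannot be assigned to a single promoter. In the Kdm5 group, which removes the methyl mark of active promoters, Kdm5c had 9.33-fold with 90 reads and Kdm5a 8.84-fold with 100 reads. Kdm5b was far lower with 3.11-fold and 54 reads, and a summit 3.12 kb outside the gene, inside Mgat4e, had 7.45-fold and 125 reads.

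The Hdac genes had a gene-end entry in 10 of 11, at a median of 7.23-fold and 88 reads. Hdac6, a mainly cytoplasmic deacetylase that acts on tubulin, had the highest fold of all 71 genes, 13.8 with 109 reads over a background of 6.95 reads. Hdac1 and Hdac2, the catalytic pair of the NuRD, Sin3 and CoREST complexes, were alike at 10.3-fold with 128 reads and 10.1-fold with 172 reads. Hdac3, of the same class of deacetylases, had 6.46-fold with 87 reads at an end shared with Rell2. These summits were nearer to the end of Rell2, so no entry was assigned to Hdac3 by the nearest-end rule. Hdac11 had 8.34-fold and 132 reads, Hdac10 7.95-fold and 89 reads, Hdac5 6.52-fold and 79 reads, and Hdac8 3.93-fold and 24 reads. The Hdac10 summit was nearer to the end of Tubgcp6. The strongest entry assigned to Hdac10 had 7.25-fold with 81 reads, at its own end.

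Gene spans can reach past the start that is used most, so the entries were also placed against annotated starts where the table gave them. This was possible for 53 of the 71 genes, with 72 starts. An entry within 1 kb of a start was found at 51 of the 53 genes (96.2%), against 66.5% of 17492 genes with a start in the table. The strongest had a median of 8.34-fold and 117 reads, against 8.47-fold and 102 reads. The summit fell within 250 bp of the start in 38 of the 51 genes (74.5%, all genes 79.7%), and the interval covered the start in 47 (92.2%, all genes 92.1%). The median summit lay 66 bp upstream of the start (offset -66 bp), against an offset of 6 bp downstream in all genes, and 20 summits (39.2%, all genes 51.6%) were downstream.

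**Figure D2:**
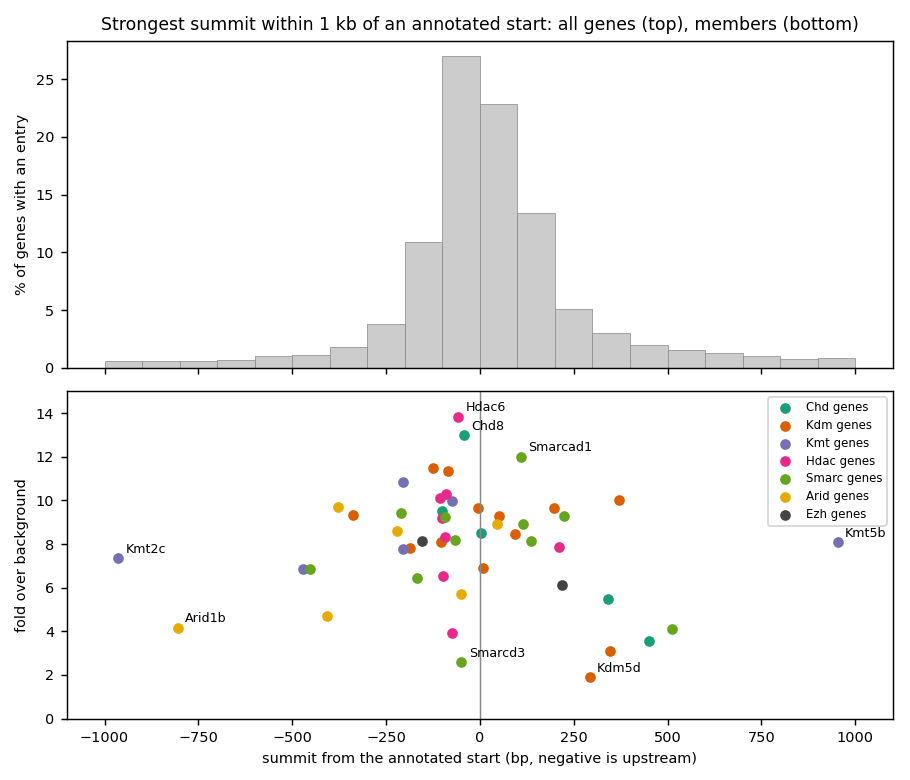
Distance of the strongest summit within 1 kb of an annotated start, in bp with upstream negative: top, share of all 11640 genes with such an entry per 100-bp bin; bottom, the 51 chromatin regulator genes by fold over local background, coloured by family. Most points lie within 250 bp of the start, and Hdac6, Chd8 and Smarcad1 are the highest.

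The starts accounted for 3 of the 5 genes without a gene-end entry, namely Arid5b, Hdac7, Kdm4c, Kdm6a and Kdm6b. Kdm6a, the X-linked remover of the Polycomb methyl mark also called Utx, had 8.09-fold and 147 reads at its start, with the summit 1.61 kb inside the span. Hdac7 had no entry at its outermost start and 7.84-fold with 99 reads at an inner one. Kdm4c had none at its outer start and 8.46-fold with 144 reads at the inner start. The 2 Kdm4c windows are printed because they separate by letters as they do by entries, and they were chosen after these values were seen. Capitals mark CACGTG, the E-box known for Myc and Usf factors.
Kdm4c outer start: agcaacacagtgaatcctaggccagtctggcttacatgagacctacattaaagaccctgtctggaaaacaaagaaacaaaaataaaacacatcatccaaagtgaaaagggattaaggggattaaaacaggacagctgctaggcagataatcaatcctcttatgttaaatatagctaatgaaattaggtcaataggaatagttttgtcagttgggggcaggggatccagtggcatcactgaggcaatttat
Kdm4c inner start: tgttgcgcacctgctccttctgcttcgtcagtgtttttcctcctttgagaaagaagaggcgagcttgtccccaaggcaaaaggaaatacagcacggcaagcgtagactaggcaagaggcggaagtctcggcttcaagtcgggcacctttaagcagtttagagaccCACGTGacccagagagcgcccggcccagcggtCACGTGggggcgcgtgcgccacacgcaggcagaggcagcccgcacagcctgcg
The outer window (chr4:74242247-74242496, plus strand) held 0 CpG pairs and 39.6% G and C. The inner window (chr4:74251629-74251878, plus strand) held 19 CpG pairs, 2 E-boxes and 60.4% G and C.

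The same was seen where the gene end had a weak entry. Hdac4 had 2.67-fold on 16 reads at its gene end and 9.18-fold on 247 reads at its annotated start, 15.3 kb inside. Kdm2b, a CpG-binding demethylase that recruits PRC1, had 3.18-fold on 35 reads at the outer end and 9.65-fold on 149 reads at inner starts. Hdac9 had 4.24-fold on 26 reads at its outer start and 10.3-fold on 87 reads at the inner one, 388 kb from the nearer gene end. Smarcal1, a helicase of stalled replication forks, had 6.07-fold on 46 reads at an end shared with Marchf4 and 8.17-fold on 110 reads at its own start. Smarcd2 went the other way, with 6.88-fold on 131 reads at an end shared with Tcam1 and no entry at its annotated start.

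Arid5b and Kdm6b kept no entry at an end. Arid5b encodes a cofactor of a demethylase. Its nearest entries lay 2.22 kb inside and 2.61 kb outside the span, with 2.39-fold and 4.18-fold, and the strongest, 9.19-fold with 119 reads, lay 3.94 kb upstream of the end. Kdm6b, also called Jmjd3 and known from the induction of differentiation genes, had 12 entries in 8 intervals, all inside its 21.9 kb. The strongest was 10.2 kb from an end, at 5.94-fold with 120 reads, and the next, 1.33 kb from the other end, had 4.31-fold with 90 reads. Genes of 0.5 to 2 times its length had a median of 3 entries (quartiles 1 and 6), and 94.9% of them had fewer. Kdm6b is not in the promoter table, so its starts could not be placed.

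Of the 66 strongest gene-end entries, 13 (19.7%) also lay within 1 kb of an end of another protein-coding gene, close to the 22.4% of all genes. Besides those named above, the shared ends were Arid2 with Gm38469, Arid3c with Dctn3, Arid4b with Ggps1, Hdac10 with Tubgcp6, Kdm2a with 9430078G10Rik, Kdm5a with Ccdc77 and Kmt2b with Zbtb32. For these the list does not say to which gene the open site belongs.

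Away from gene ends, the chromatin regulators differed among themselves far more than at their ends. Entries per gene ran from 0 to 79 with a median of 5, against 3 for all genes, and 22 genes (31.0%) had 10 or more, against 16.4% of all genes. An entry more than 1 kb from every protein-coding gene end was found at 64 of 71 (90.1%), against 66.9%. Such entries include those at annotated starts deeper inside a gene. Length goes with these counts. Spearman's rho between length and entries was 0.59 over the 71 genes and 0.58 over all genes, a description over genes that share 1 list. With genes divided into 20 classes of length, 36 of the 71 (50.7%) had more entries than the median of their class, against 43.3% of all genes, 25 had fewer and 10 had the same number. In the longest of the 4 wider classes the medians were 8 entries for the chromatin regulators and 9 for all genes, and in the next 4 and 3. At like length the difference was thus small and went in both directions, and the part of length in the higher overall median was not tested.

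**Figure D3:**
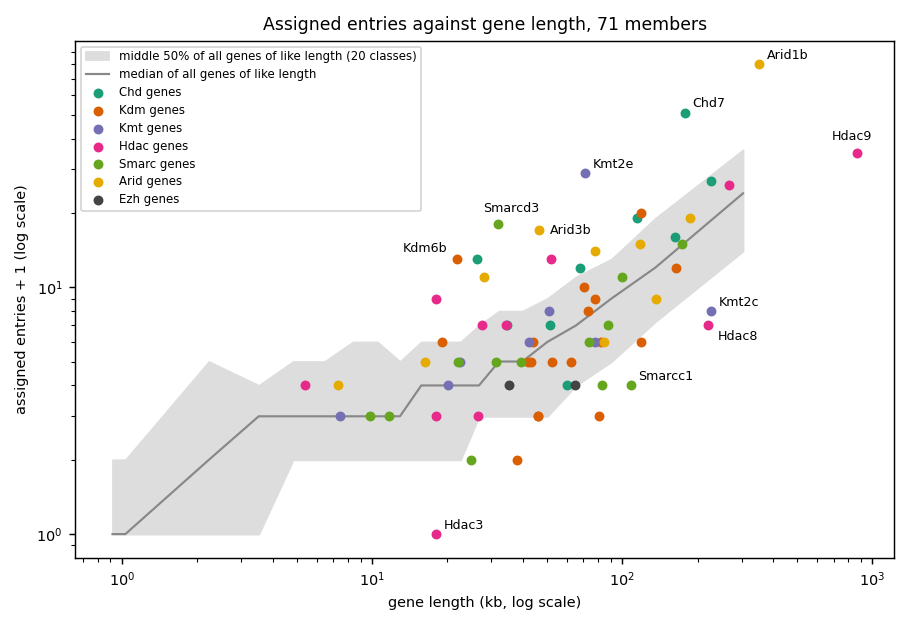
Assigned entries plus 1 against gene length in kb, both on log scales, for the 71 genes coloured by family; the grey line and band are the median and middle 50% of all genes in 20 classes of length. Arid1b, Chd7, Kmt2e, Smarcd3 and Kdm6b lie above the band and Hdac3, Hdac8, Kmt2c and Smarcc1 below it.

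By place, 143 of the 672 entries (21.3%) lay at the gene's own ends, 380 (56.5%) deeper inside the gene, 138 (20.5%) between genes, 10 inside another gene and 1 at the end of another gene. Entries at gene ends were the strongest and widest, with medians of 5.26-fold, 79 reads and 1202 bp. Those inside genes had medians of 2.67-fold and 23 reads, and those between genes 3.01-fold and 22 reads. Distal entries of the chromatin regulators had a median of 2.74-fold, against 2.98-fold for all distal entries. At 43 genes the strongest assigned entry was at the gene's own end, at 18 deeper inside, at 8 between genes and at 1 inside another gene. Places were set by gene ends, so entries at annotated starts more than 1 kb from any gene end count as inside and distal. At Hdac7, Kdm2b, Kdm4c, Kdm6a, Kmt2d and Kmt5b the strongest assigned entry, deeper inside, lay within 1 kb of an annotated start. The families differed in place. Of 147 Chd entries, 41.5% lay between genes, while 74.1% of 170 Arid entries lay inside the gene. The Chd family held 21.9% of all 672 entries and the Arid family 25.3%.

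Counts were concentrated in a few genes. Arid1b (79), Chd7 (50) and Hdac9 (34) held 24.3% of the entries, and the 10 genes with most entries 46.7%. The others of these 10 were Kmt2e with 28, Chd9 with 26, Hdac4 with 25, Kdm2b with 19, Chd2 and Arid5b with 18 each, and Smarcd3 with 17. At the other end, 36 genes had 5 entries or fewer, and 6 genes with entries had none beyond 1 kb of a gene end.

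Arid1b, the BAF subunit most often mutated in intellectual disability syndromes, had the most entries, 79 in 61 intervals over a span of 353 kb. Of these, 64 lay inside the gene, 12 between genes and 3 at the end, and 59 had a q-value under 0.05. Most were weak, with a median of 2.67-fold, and 11 reached 4-fold. The strongest, at chr17:5189515-5190550 and 195 kb downstream of the start, had 10.7-fold and 129 reads, more than the 4.16-fold and 82 reads of the promoter. The next, 86.7 kb upstream of the start, had 8.64-fold and 113 reads. Genes of 0.5 to 2 times this length had a median of 20 entries (quartiles 12 and 32), 99.1% of those 1042 genes had fewer, and 31 of all genes had more. Its alternate in the complex, Arid1a, is shorter at 77.8 kb and had 13 entries, 1.63 times the median of its length class, where Arid1b had 3.43 times.

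Chd7, the gene of CHARGE syndrome and known for roles in neural crest and neural progenitors, had 50 entries in 38 intervals. They were divided between 22 inside the gene, 23 between genes and 5 at its ends, and 40 had a q-value under 0.05. The strongest entry at a gene end had 7.82-fold with 155 reads, and Chd7 is not in the promoter table, so it could not be set against a start. Entries of like strength lay 17.8 kb from an end inside the gene, with 8.20-fold and 113 reads, and 43.2 kb beyond the gene, with 8.01-fold and 173 reads. Genes of 0.5 to 2 times its length had a median of 12 entries, 98.7% had fewer, and 133 of all genes had more. Chd9 is longer, at 226 kb against 178 kb, and had 26 entries, close to the median of 23 in its length class. Its strongest, at chr8:90907807-90909380 inside the gene and 80.0 kb from an end, had 11.9-fold and 198 reads, more than its promoter with 8.51-fold and 100 reads.

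Kmt2e, a relative of the MLL enzymes without known methyltransferase activity, had 28 entries on 71.2 kb, where genes of like length had a median of 6 and 98.3% had fewer. The 28 of Kmt2e lay in 20 intervals, and only 18 had a q-value under 0.05. Of its entries, 10 lay inside the gene, 9 between genes, 3 at its ends and 6 inside the neighbour Srpk2, so part of the count rests on the rule of assignment. The strongest was at chr5:23386545-23387334, 45.9 kb outside the gene within the noncoding gene 5031425E22Rik, with 10.1-fold and 110 reads. The gene end had 4.99-fold and 115 reads. Chd2 was similar in kind. Of its 18 entries 10 lay between genes, and they included 11.6-fold with 109 reads at chr7:73594540-73595657, 53.6 kb from the gene within the noncoding Gm30149, and 10.1-fold with 183 reads 16.9 kb from the gene.

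**Figure D4:**
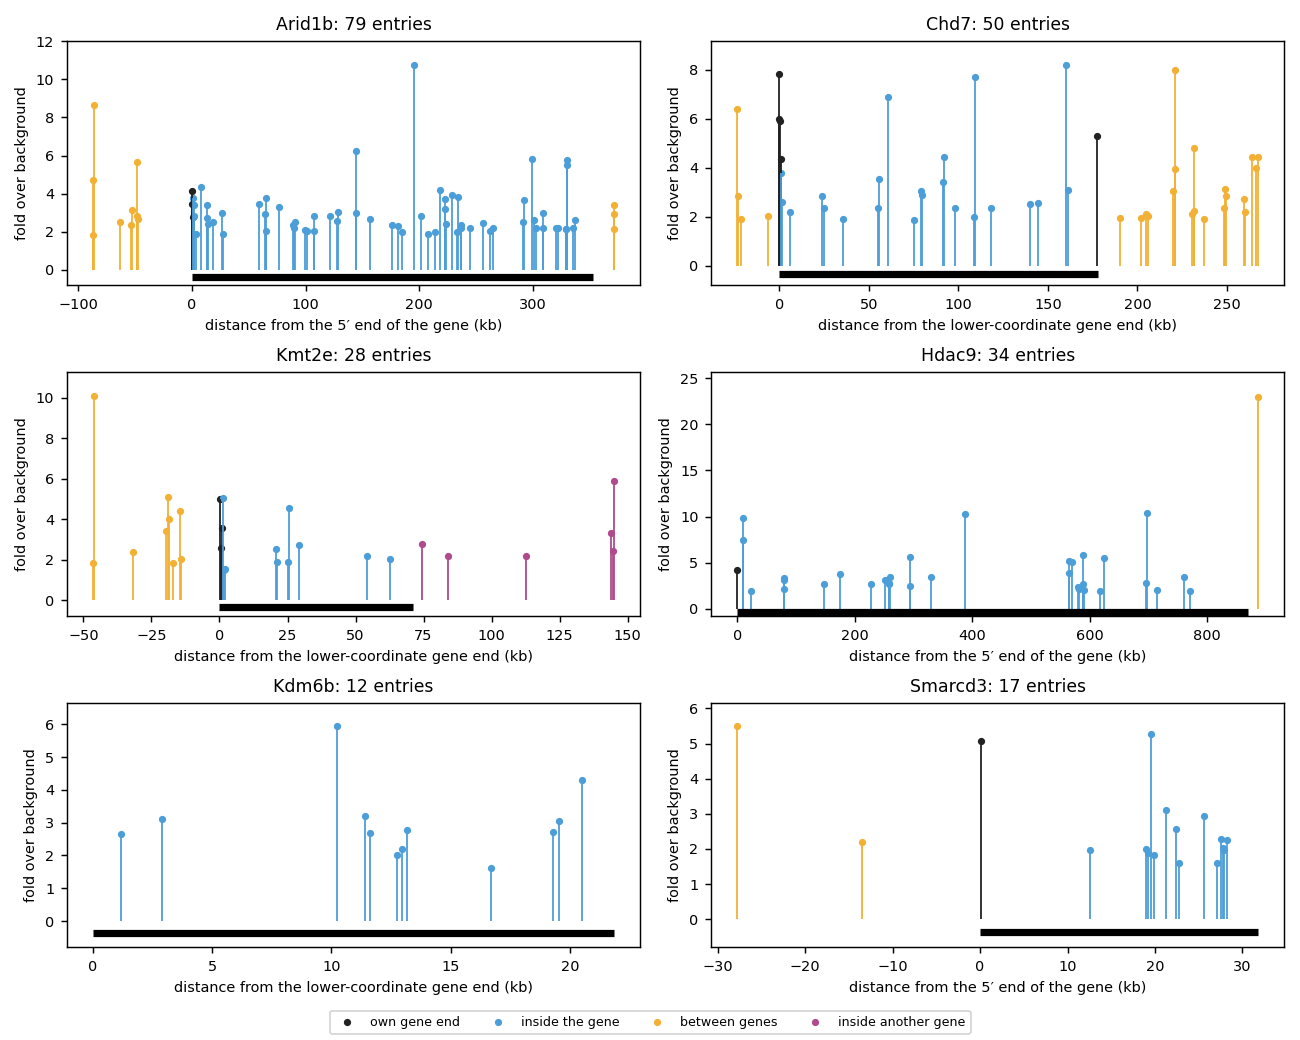
Entries of 6 genes by distance in kb from the upstream end of the gene, or from the end of lower coordinate where the strand was not known; each stem is an entry, its height the fold over local background, its colour the place, and the black bar the gene. Arid1b is filled along its whole length, Chd7 and Kmt2e have many entries outside the gene, and at Hdac9 the tallest stem (22.9-fold) lies beyond the far end.

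Hdac9, a class II deacetylase that represses Mef2 target genes, is the longest of the 71 at 870 kb. Its 34 entries were close to the median of 35 for genes of 0.5 to 2 times its length. It held the entry of highest fold in the group, 22.9-fold with 145 reads (interval 122 to 171) over a background of 5.37 reads, the lowest level in the list. That entry, at chr12:34029834-34030233, is 400 bp wide and lies 17.6 kb downstream of the far end of the gene, between genes. Assignment to Hdac9 rests on distance alone. Inside the gene, summits 173 kb and 10.2 kb from an end had 10.4-fold with 112 reads and 9.89-fold with 77 reads. Hdac4, of the same class, had 25 entries, and the highest was 9.90-fold with 62 reads at 100 kb from an end, only 253 bp wide. Kdm7a, Kdm2a and Arid1a also had entries close to 10-fold away from their ends, with 9.72-fold (19.6 kb upstream), 9.99-fold (17.9 kb inside) and 9.71-fold (26.8 kb inside). Chd8, with only 3 entries, had 11.6-fold and 100 reads 13.5 kb inside the gene.

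Other long genes had few entries. Hdac8, at 221 kb, had 6 and Kmt2c, at 227 kb, had 7, where the median of their length class was 23. Smarcc1 had 3 on 108 kb and Kdm5a 2 on 80.5 kb, against a class median of 8 for both. Among shorter genes, Smarcb1 (24.8 kb) and Kdm4d (38.0 kb) had 1 entry each, at a gene end, against class medians of 3 and 4. The fold at the gene end and the number of distal entries went in opposite directions, with Spearman's rho of -0.40 over 66 chromatin regulators and -0.07 over all genes, again a description over genes in 1 list.

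The sex chromosomes gave lower read counts. The X-linked genes are Hdac6, Hdac8, Kdm5c, Kdm6a and Smarca1, and the 4 with a gene-end entry had a median of 57.5 reads there, against 116 for autosomal chromatin regulators. All X-linked genes with such an entry had a median of 62 reads and all autosomal genes 98. The 4 were divided, with 109 reads at Hdac6 and 90 at Kdm5c but 25 at Smarca1 and 24 at Hdac8. Kdm6a had 147 reads at its annotated start. Median folds were alike, with 8.30 for all X-linked and 8.17 for all autosomal genes. Kdm5d, the Y-linked partner of Kdm5c, had 11 reads at 1.89-fold and a -log10 q of 0.27, and did not pass a q-value of 0.05. The labels do not give the sex of the embryos.

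The letters before the start sites went with the presence of an entry. Over the 72 windows of 250 bases before annotated starts of chromatin regulators, the median share of G and C was 61.8%, against 55.6% over 21263 windows of 17492 genes. The observed to expected ratio of CpG was 0.80 against 0.53. All windows with an entry within 1 kb had medians of 60.8% and 0.72. The 65 windows of chromatin regulators with an entry had 63.6% and 0.84. The 7 windows without had 48.4% and 0.20, next to 46.0% and 0.17 over all windows without. They were an outer start of Kdm4c, inner starts of Chd9 and Kdm3a, 2 starts of Hdac7, and the starts of Arid5b and Smarcd2. Ratios as low as these were also found at 4 starts with an entry, namely both starts of Hdac9 (0.17 and 0), an inner start of Kmt5a (0.30) and the start of Smarca1 (0.33). The Kmt2c window was 91.6% G and C, the highest of all windows in the table.

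**Figure D5:**
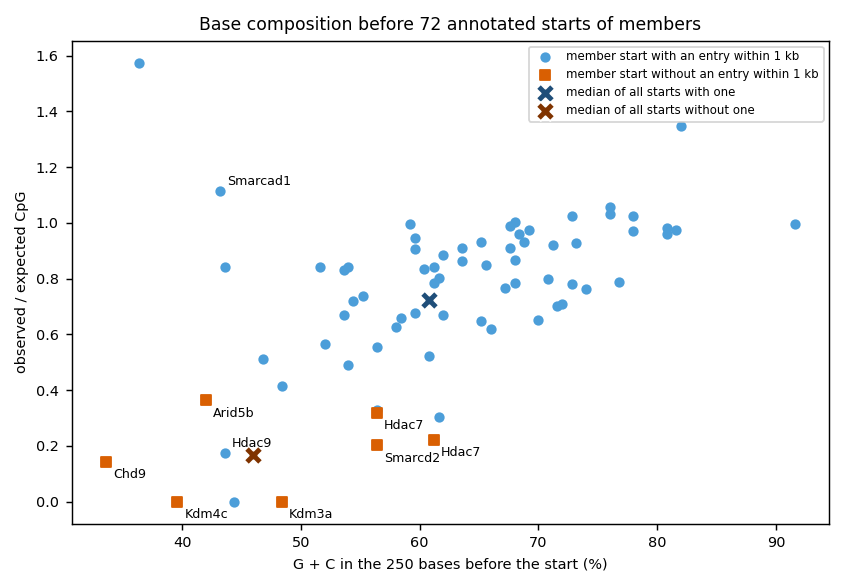
Observed to expected CpG ratio against the share of G and C in the 250 bases before 72 annotated starts of 53 chromatin regulator genes, with (circles) and without (squares) an entry within 1 kb; crosses are the medians over all starts with and without one. The 7 starts without an entry lie at ratios of 0.363 or less, and 4 starts with an entry lie there too.

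Short motifs were searched on both strands of the same windows. GC boxes (GGGCGG) were the most frequent, in 65.3% of the 72 windows, against 42.6% of all windows and 60.3% of all windows with an entry. The CCAAT box was found in 36.1%, against 35.4% of all windows. The TATA box (TATAAA) was in 6.94% against 11.6%, and in 5.99% of those with an entry. Of letters known for ETS factors (CCGGAAG), the share was 8.33% against 8.98%. Those known for NRF1 (GCGCATGC) were in 4.17% against 2.93%. The E-box was in 2.78% against 6.63%, at Kdm6a and Kdm4c. Letters known for YY1 (GCCATNTTG) were in 0 of the 72 windows and in 1.34% of all. Apart from GC boxes these shares differ by few windows. None of these motifs contains another, and a match of letters is not a bound site.

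The partners of these enzymes were described with 11 further lists of 118 chromatin genes. Gene-end entries were found at 109 of the 118 (92.4%), with medians of 5 entries, 8.32-fold and 110 reads, all close to the values of the 71. The subunits that BAF exchanges at the exit from the progenitor state had entries in both forms. Of the progenitor form, Actl6a had 8.80-fold with 138 reads, Phf10 9.57-fold with 129 reads and Dpf2 8.74-fold with 93 reads, while Ss18 had 5 entries and none at an end. Of the neuronal form, Actl6b had 10.7-fold with 83 reads, Ss18l1 8.53-fold with 86 reads, Dpf3 8.33-fold with 104 reads and Dpf1 5.05-fold with 108 reads. Gene-end entries were found at 3 of 4 genes of the progenitor form and 4 of 4 of the neuronal form, against 65.5% of all protein-coding genes. Such counts say nothing particular about the exchange, and the list holds no measure of transcription. Among other BAF subunits 10 of 11 had a gene-end entry. The exception was Actb, with 7 entries. Actb and Ss18 have no start in the promoter table, so their entries could not be set against a start. Bcl11a had 26 entries and Bcl11b 17, but only 3.42-fold and 3.41-fold at their ends.

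Polycomb partners of PRC2 had a gene-end entry in 10 of 10 and a median of 7 entries, next to 7 for other BAF subunits, led by Jarid2 with 28, Aebp2 with 24 and Rbbp7 with 11. The core subunits Suz12 and Eed had 11.5-fold and 8.19-fold at their ends. PRC1 genes had a gene-end entry in 17 of 18 and a median of 6.5 entries, led by Rybp with 33, Phc2 with 23 and Pcgf5 with 14. Cbx7 had 11 entries and 5.81-fold at its start, with none at a gene end. Subunits of deacetylase corepressors had one in 17 of 17, with 12 entries at Mta3. The COMPASS partners of the Kmt2 enzymes had one in 8 of 10 and a median of 3.5 entries. Of the 2 without, Dpy30 had 11.1-fold at its annotated start and Ash2l had 3 entries, none at an end. Ash2l has no start in the promoter table.

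Other lysine methyltransferases had a gene-end entry in 16 of 17, with 54 entries at Smyd3, which spans 566 kb, 19 at Smyd2 and 10 at Nsd1. The exception was Smyd1, a gene of heart and skeletal muscle. The highest fold of these lists was at Suv39h2, an enzyme of heterochromatin, with 14.1-fold and 191 reads. Acetyltransferases had a gene-end entry in 10 of 10, with 13 entries at Kat6b and 7 each at Kat6a and Ep300, and sirtuins in 7 of 7 with a median of 2 entries. DNA methylation genes had one in 7 of 10. Dnmt3a had 30 entries, none at a gene end and 6.67-fold with 92 reads at a start, and Dnmt1 had 7.36-fold with 94 reads at a start. Dnmt3l, a cofactor of germ cells, had 1 entry, away from its ends.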

How the data were processed

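ATAC-seq of 2 replicates of sorted GFP+ cells was analysed from 1 peak list, pooled and filtered by the submitters. The submitters' processing notes list MACS2 2.2.7.1, SAMtools 1.7.2, BWA 0.7.1.7, Trim Galore and cutadapt 0.6.2 without roles, and mm10 as the build. For the settings of these tools, the filter, the treatment of duplicates and any Tn5 shift, nothing is given in the sources used here, and without a shift summits would lie a few bases away. Nothing in the labels says if the 2 replicates are separate litters.

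The deposited fold is the authors' ratio of the summit pileup to a local background, and the deposited significance values are the −log10 of the p-value and q-value. The deposited score, 10 times the −log10 p without its decimals in 99.9993% of entries, adds nothing and was left out. Read pileups and backgrounds were solved from fold and −log10 p with a Poisson tail and the ratio (pileup + 1)/(background + 1). Of all pileups, 99.96% were whole to within 0.01. The total depth of each library is unknown. Poisson intervals (95%) cover counting error only.

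Genes (GRCm38.p6, 21887 protein-coding on chromosomes 1 to 19, X and Y) were joined by summit position, with 1 kb windows at gene ends and a reach of 100 kb outside genes. Strand and starts came from the RefSeq promoter table of the same build, which held 53 of the 71 genes. In 1843 of 1843 overlapping pairs of windows on opposite strands the sequences were reverse complements. Coordinates are mm10, counted from 1.

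The genes and lists were chosen with earlier results of these data known. Every one of the 71 could be named. Full values were given for the family leaders by entries and by fold at a gene end, the genes without a gene-end entry, the 10 with most entries, the 10 with the highest and 5 with the lowest fold, and the 10 strongest distal entries. Of other lists, 3 genes with most entries and those without a gene-end entry were named, except 1 gene that is not reported here. Others, such as Suz12, Eed, Bcl11a and Suv39h2, were named after their values were seen. No test was made, since there is 1 group and no replicate file. Alternatives changed windows, thresholds, reach and chromosomes. Scripts (Python 3.11.15, pandas 2.3.3, scipy 1.17.1) were tested on simulated data.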

Additional observations from a re-analysis of the deposited data

How the results depend on the processing

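The share of chromatin regulators with a gene-end entry ran from 85.9% (500 bp window, all genes 60.0%) to 96.2% (starts only, all genes 66.5%) over 9 alternatives, and stayed above that of all genes in each. The share above the median fold ran from 42.2 to 50% over 7. Keeping the upper 50% of entries by −log10 q lowered the total from 672 to 347 entries, the median from 5 to 3 (all genes from 3 to 2) and the share with a distal entry from 90.1 to 62.0% (all genes 51.4%), which follows from fewer entries. The other alternatives for these values, 22 in all, moved them less. Among them, 2 chosen after seeing the data left out Arid1b, with 593 entries and a median of 5. A further added alternative counted any base of an interval within 1 kb, which gave 68 of 71 genes (95.8%).

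No paired analysis was possible because the 2 replicates form a single group and were pooled into 1 list, so no replicate could be left out either. Of the 672, 541 had a q-value under 0.05.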
